A study of Saccharomyces cerevisiae S288C and Saccharomyces paradoxus NRRL Y-17217 and Saccharomyces mikatae IFO 1815 with 8 samples.

Results

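Expression on the second culture day was set against expression on the first in 4 Saccharomyces species. There were 4 libraries from day 2, the cultures labelled replicate 2, and 4 from day 1, the cultures labelled replicate 1, so all 8 libraries of the series entered the comparison, 2 from each species. The genes compared were those listed once in the sheets of all 4 species with at least 90% of their reads aligned to a single place: 3755 of the 6599 genes on the S. cerevisiae sheet were listed once in every species, 3339 also met the limit on unique reads, and 3262 of these had at least 10 reads in at least 2 libraries and were tested. The strains were S288c wt (FY4xFY5) for S. cerevisiae, Y-17217 for S. paradoxus, IFO1815 for S. mikatae and MCYC623 for S. bayanus, which the organism label lists as Saccharomyces uvarum CLIB 533. All were diploid wild type strains with no treatment, 1 strain per species, and were taken during exponential growth. The methods name a synthetic glucose medium without amino acids, while the labels name complete media, and which holds was not tested.

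The supplement ties the replicate number to a day of growth and preparation but does not say which day came first. A note deposited with the counts also gives each replicate number its own day, yet its example of a comparison within 1 batch pairs replicate 1 of one species with replicate 2 of another. The replicate number was taken as the day, and the example was not resolved. Each replicate also had its own isolate from the plate, its own batch of medium and its own RNA and library preparation. Culture, isolate, medium and preparation therefore moved with the day and cannot be told apart. With 1 culture per species and day, the spread comes from the 4 species, and edgeR draws it toward a value shared across genes. A gene could therefore be called with changes of unlike size in the species. An exact permutation test of signs over 4 pairs cannot go below p = 0.125. Calls thus came from edgeR's quasi-likelihood test, with species as a block, day as the tested term, and Benjamini-Hochberg adjustment over all 3262 genes at a threshold of 0.05.

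Yeast cells that grow on glucose make most of their energy by fermentation, and glucose keeps the genes for gluconeogenesis, for the glyoxylate cycle and for respiration low. Genes of the cell cycle are transcribed in waves: a G1/S wave, then a G2/M wave driven by forkhead factors with Mcm1, then an M/G1 wave, and the level in a culture is an average over cells in all phases. In a medium without amino acids, Gcn4 and pathway regulators such as Met4 keep the genes of amino acid synthesis active.

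Libraries of day 2 were deeper in every species. They held 3020233 to 6514353 unique reads on the 3339 genes, against 2099357 to 4224808 on day 1, and the 10 most abundant transcripts held 20.0 to 30.3% of these reads on day 2, against 18.7 to 28.8% on day 1. Levels are given as counts-per-million (CPM) on library totals scaled by TMM, a normalization that sets the middle of the genes equal, and a change is the log2 of day 2 over day 1. The cultures were checked with genes that vegetative diploids keep low. The 16 measured of 21 haploid-specific genes summed to 254 to 416 CPM on day 2, against 277 to 458 CPM on day 1. Only 6 of them had a median under 10 CPM and 3 were at 0 in at least 1 library, and STE12 had the highest median, 50.2 CPM. The 38 measured of 60 meiosis and sporulation genes summed to 143 to 338 CPM on day 2, against 233 to 583 CPM on day 1; 29 of them had a median under 10 CPM and 13 were at 0 in a library. In any library the sums were at most 0.0458% and 0.0583% of the unique reads on the 3339 genes, and their ranges overlapped between the days.

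Between the days 26 genes passed the test, of which 7 rose and 19 fell on day 2, 0.215% and 0.582% of the tested genes. With library totals in place of TMM the split was 6 higher and 48 lower, and the median change of all genes was -0.08 with library totals and 0.06 with TMM. By species the medians of all genes were 0.14, -0.17, 0.01 and -0.33 with library totals, so changes of gene lists are read against the median of all genes under the same scaling. The unadjusted p was under 0.05 for 305 genes on the higher side and 368 on the lower side, 9.35% and 11.3%. In all 4 species at once, 41 genes were at least 1.5-fold higher on day 2 and 91 at least 1.5-fold lower, 1.26% and 2.79% of the tested genes. Just inside this limit was CBP4, whose smallest change was 0.59, and just outside it YPL114W, at 0.58. Without this limit on size, 525 genes were higher in all 4 species, 410 were lower in all 4, and 2327 went in different directions.

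All 26 called genes had the same direction in the 4 species. Of these, 21 moved at least 1.5-fold in every species and 11 at least 2-fold in every species. In 6 of them, VID24, ITC1, YPR148C, BUB1, SEC9 and MCD1, no day 2 library overlapped a day 1 library, with 1 higher and 5 lower on day 2. Of all tested genes, 1.04% lay wholly higher on day 2, 1.78% wholly lower and 2.82% in either direction. In the other 20 called genes the ranges of the days overlapped. All 26 kept their direction under each of the 17 to 19 alternatives in which they were tested, which their shared direction in the 4 species made likely beforehand. The number called depended on which species lost a library. The species term then absorbs the other library of that species, so the pair no longer informs the day change. The number called ran from 2 without the day 1 library of S. cerevisiae, or without either S. paradoxus library, to 48 without the day 1 library of S. bayanus. It was 4 without the day 2 library of S. cerevisiae, 7 without either S. mikatae library and 42 without the day 2 library of S. bayanus. The 8 fits that left out 1 library thus took each species out of the day comparison in 2 fits. Of these 8, BUD4 was called in 6, PLN1, MKS1, BOI1, FIR1 and LEO1 in 0, and the other 20 genes in 2 to 5.

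**Figure D1:**
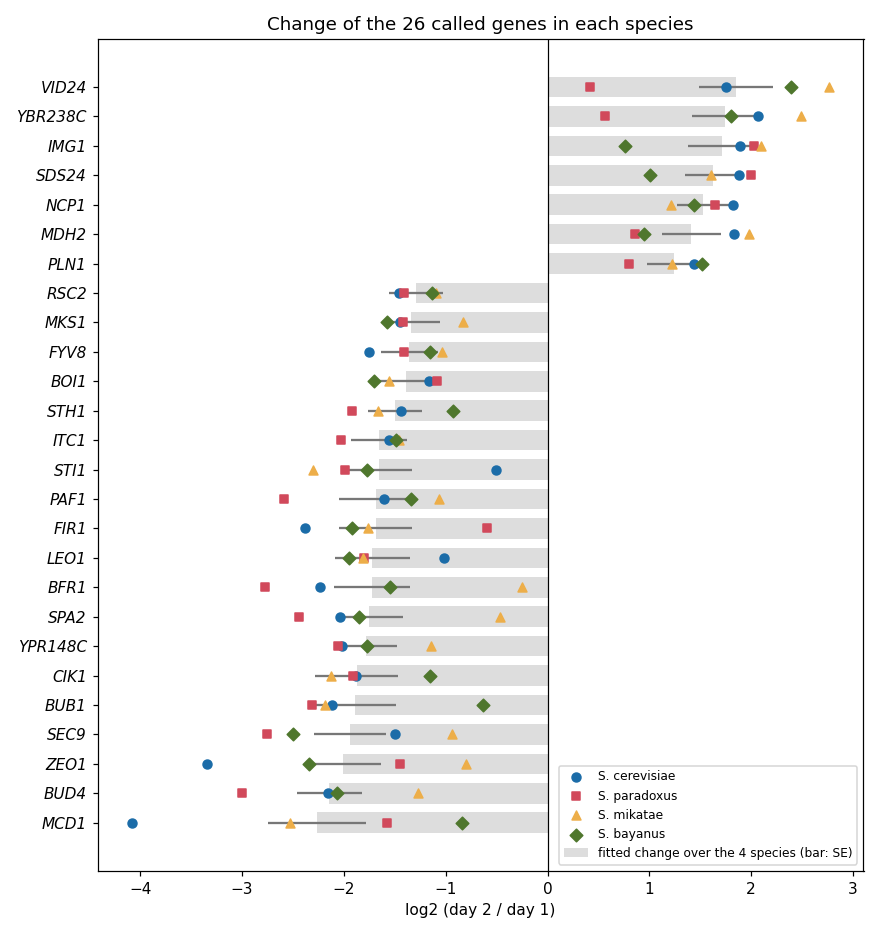
Change of each of the 26 called genes in each species, as log2 of day 2 over day 1 on the horizontal axis with 1 row per gene and 1 point per species. All points of the 7 genes that rose lie right of 0 and all points of the 19 that fell lie left of it, from 2.76 for VID24 in S. mikatae to -4.08 for MCD1 in S. cerevisiae.

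Genes of chromatin and transcription elongation were among those that fell. STH1, the ATPase of the RSC chromatin remodelling complex, had 132, 38.7, 26.6 and 71.7 CPM on day 2, against 360, 149, 85.7 and 137 CPM on day 1, with species ordered as S. cerevisiae, S. paradoxus, then S. mikatae and last S. bayanus here and in all such rows of values. Each species was lower on day 2, and the fall was least in S. bayanus. Over the species STH1 fell to a level 2.83-fold lower (SE of the log2 change 0.27, n = 4 libraries a day), with an edgeR adjusted p of 0.0270. RSC2, a subunit of the same complex, fell by 1.29 ± 0.27 (edgeR adjusted p = 0.0446) and was nearly alike in the 4 species, at -1.46, -1.41, -1.10 and -1.14.

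ITC1, the partner of the Isw2 ATPase in a remodelling complex that keeps early meiotic genes repressed during vegetative growth, had 18.8, 25.2, 18.0 and 47.4 CPM on day 2, against 56.5, 105, 50.6 and 134 CPM on day 1. All 4 day 2 libraries lay below all 4 day 1 libraries. The fall was 1.66 ± 0.28 on the log2 scale, 3.15-fold, with an edgeR adjusted p of 0.0270. PAF1 and LEO1, subunits of the Paf1 complex that travels with RNA polymerase II, fell by 1.69 ± 0.36 and 1.72 ± 0.37 (edgeR adjusted p = 0.0446 each). Both were scarce: LEO1 rested on 10 to 63 reads per library on day 2, against 32 to 137 on day 1. Of the 32 tested subunits of chromatin remodelling complexes, 13 were lower in all 4 species and 0 higher in all 4, 6 were at least 1.5-fold lower in all 4, and 13 had an unadjusted p under 0.05 on the lower side, where all genes gave 11.3%. Of all 3262 tested genes, 410 were lower and 525 higher in all 4 species. Such counts of lists, here and below, are to be read against these. The medians of the list were -0.53, -0.46, -0.58 and -0.57 in the 4 species, against 0.03, 0.12, 0.01 and 0.03 over all tested genes. Because the gene lists were chosen with earlier results of these data known, counts and medians of lists here and below are a description. IES4, of the INO80 complex, had a change of -1.61 (adjusted p = 0.0694). RSC9, a further RSC subunit, named after its value was seen, was at 0.49 (adjusted p = 0.428).

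Genes of bud growth, septum formation and polarised secretion made a further group. BUD4, an anillin-like protein that binds septins and marks the axial bud site, had 10.8, 13.8, 24.3 and 60.5 CPM on day 2, against 49.9, 114, 59.5 and 255 CPM on day 1. S. bayanus had the highest level on both days, and every species was lower on day 2. BUD4 had the lowest p-value of all genes, with a fall of 2.14 ± 0.32 on the log2 scale, 4.42-fold, and an edgeR adjusted p of 0.0227.

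SPA2, the scaffold of the polarisome that organises actin at the growing bud, had 40.9, 20.0, 13.5 and 82.9 CPM on day 2, against 169, 111, 18.8 and 301 CPM on day 1. S. mikatae moved by -0.46 and the other 3 species were more than 3-fold lower. The fall was 1.75 ± 0.33 (edgeR adjusted p = 0.0302). BOI1, which helps secretory vesicles fuse at sites of polar growth, fell by 1.39 ± 0.29 (adjusted p = 0.0446) and had changes of -1.16, -1.08, -1.56 and -1.70. SEC9, the plasma membrane t-SNARE of exocytosis, had 17.7, 8.94, 23.4 and 22.1 CPM on day 2, against 50.8, 63.5, 45.3 and 128 CPM on day 1. The days did not overlap, and the fall of 1.94 ± 0.35 (edgeR adjusted p = 0.0302) was largest in S. paradoxus and S. bayanus. Of 33 tested genes of septins, bud site and polarity, 15 were lower in all 4 species and 3 higher in all 4, and 8 were at least 1.5-fold lower in all 4. The medians were -0.41, -0.28, -0.46 and -0.51, and 12 had an unadjusted p under 0.05 on the lower side against 1 on the higher side. CDC42, the GTPase that sets polarity and is named here after its value was seen, was at 0.61 (adjusted p = 0.188).

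Genes of mitosis fell with them. MCD1, the kleisin subunit of cohesin, which holds sister chromatids together, had 1.45, 19.8, 7.30 and 11.53 CPM on day 2, against 32.9, 60.1, 44.8 and 21.1 CPM on day 1. The days did not overlap, but the size ran from -4.08 in S. cerevisiae, which had only 9 reads on day 2, to -0.84 in S. bayanus. The fall of 2.26 ± 0.48 was the largest of the called genes with an edgeR adjusted p of 0.0446. BUB1, the kinase of the spindle checkpoint, had 4.02, 7.04, 5.58 and 15.6 CPM on day 2, against 19.3, 37.1, 27.3 and 24.6 CPM on day 1. It fell by 1.89 ± 0.40 (adjusted p = 0.0446), to about the same extent in 3 of the species and by less in S. bayanus. CIK1, which joins the kinesin Kar3, fell by 1.87 ± 0.40 (adjusted p = 0.0446) and had only 3 reads in the day 2 library of S. mikatae.

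Of the G2/M list, most members were lower on day 2. Of its 20 tested genes, 13 were lower in all 4 species and 0 higher in all 4, 12 had an unadjusted p under 0.05 on the lower side, and BUD4 was called. The medians were -0.66, -0.59, -0.82 and -0.74, the lowest of all lists in S. mikatae. FKH1, one of the forkhead factors of this wave, was at -1.64 (adjusted p = 0.0619) and HOF1, which acts in cytokinesis, at -1.39 (adjusted p = 0.0651). Further members, named after their values were seen, were IPL1, BIR1 and SLI15 of the chromosomal passenger complex at -1.51, -1.27 and -1.28, the polo kinase CDC5 at -1.13, and the cyclin CLB2 at -0.69 (adjusted p = 0.175). MOB1 and BUB2, regulators of mitotic exit, were above 0 at 0.29 and 0.46. Of 50 tested genes of microtubules and kinetochore, 14 were lower in all 4 species and 1 higher in all 4, 20 had an unadjusted p under 0.05 on the lower side and 0 on the higher side, and the medians were -0.88, -0.39, -0.24 and -0.63.

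In the other waves of the cell cycle, the 32 tested G1/S transcripts, which hold MCD1, had medians of -0.71, 0.19, -0.35 and -0.14, so S. paradoxus was above the median of all genes, 0.12 in that species, and the others below theirs. Of the 32, 9 were lower and 1 higher in all 4 species, and 9 had an unadjusted p under 0.05 on the lower side and 1 on the higher side. The 14 tested M/G1 transcripts had medians of -0.17, 0.06, 0.01 and -0.46. In that list CLN3, the G1 cyclin that acts at the start of the cycle, was at 1.15 (adjusted p = 0.0624) and higher on day 2 in all 4 species. No difference between the waves was tested.

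**Figure D2:**
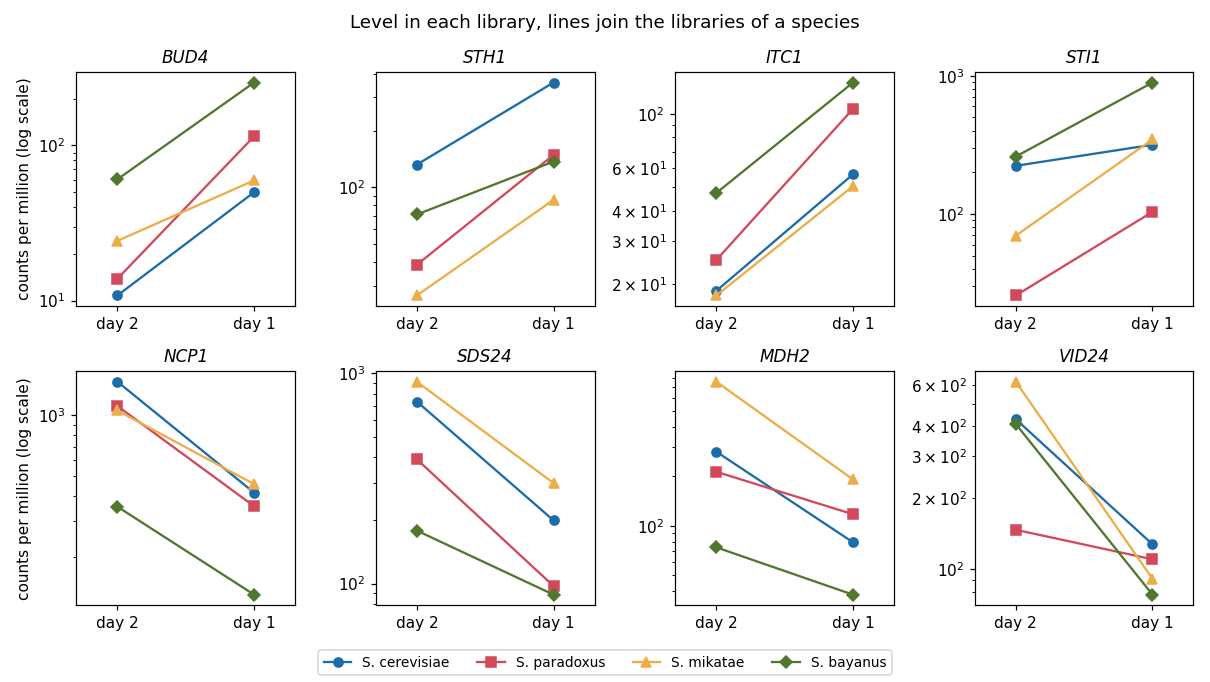
Level of 8 called genes in each library, in CPM on a log axis, with day 2 left of day 1 and a line joining the libraries of a species. The lines of BUD4, STH1, ITC1 and STI1 are lower at day 2 in every species and those of NCP1, SDS24, MDH2 and VID24 higher, and the species keep different levels on both days.

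Promoter windows of genes that moved together are shown with short motifs known from S. cerevisiae. The windows run from 250 bases before the start codon to 50 after its first base, are taken from the RefSeq S. cerevisiae genome of build R64 and read 5′ to 3′ on the strand of the gene. The first group holds 4 genes that fell and carry GTAAACA, a site of forkhead factors, and the next lines hold STI1, a fallen gene with 2 matches to the heat shock element GAANNTTC, and SDS24, a gene that rose and has 2 matches to the stress response element AGGGG. Capitals mark every match to any of 12 motifs, on either strand.
BUD4, chrX:598485-598784, plus strand: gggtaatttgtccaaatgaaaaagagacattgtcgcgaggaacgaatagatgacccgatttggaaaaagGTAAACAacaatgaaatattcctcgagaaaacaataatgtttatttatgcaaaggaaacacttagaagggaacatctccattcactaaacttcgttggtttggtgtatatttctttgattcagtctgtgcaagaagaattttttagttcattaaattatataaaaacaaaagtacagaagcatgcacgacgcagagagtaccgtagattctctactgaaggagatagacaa
SPA2, chrXII:100697-100996, plus strand: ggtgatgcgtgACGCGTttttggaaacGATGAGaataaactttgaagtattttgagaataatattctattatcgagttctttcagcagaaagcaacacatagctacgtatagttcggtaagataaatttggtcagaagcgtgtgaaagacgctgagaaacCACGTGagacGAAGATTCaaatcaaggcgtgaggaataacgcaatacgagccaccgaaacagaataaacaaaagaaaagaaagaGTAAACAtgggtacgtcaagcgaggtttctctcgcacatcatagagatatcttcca
ITC1, chrVII:257457-257756, plus strand: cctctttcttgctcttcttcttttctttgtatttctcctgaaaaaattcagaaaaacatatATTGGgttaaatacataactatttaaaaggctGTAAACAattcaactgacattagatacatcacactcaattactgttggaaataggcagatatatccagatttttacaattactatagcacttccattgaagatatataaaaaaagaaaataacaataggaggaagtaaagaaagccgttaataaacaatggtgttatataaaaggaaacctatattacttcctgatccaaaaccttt
FIR1, chrV:214813-215112, plus strand: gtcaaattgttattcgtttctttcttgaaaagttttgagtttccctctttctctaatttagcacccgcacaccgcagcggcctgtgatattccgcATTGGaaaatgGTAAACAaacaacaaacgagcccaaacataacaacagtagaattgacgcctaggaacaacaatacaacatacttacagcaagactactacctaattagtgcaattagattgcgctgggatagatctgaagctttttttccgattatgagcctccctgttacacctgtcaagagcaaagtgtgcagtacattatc
STI1, chrXV:380803-381102, plus strand: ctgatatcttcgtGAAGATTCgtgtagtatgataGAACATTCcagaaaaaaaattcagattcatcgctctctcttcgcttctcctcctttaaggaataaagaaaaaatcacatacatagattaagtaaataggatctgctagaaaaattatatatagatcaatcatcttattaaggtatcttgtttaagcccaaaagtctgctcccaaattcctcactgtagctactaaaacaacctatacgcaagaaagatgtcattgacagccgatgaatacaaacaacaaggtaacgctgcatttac
SDS24, chrII:651165-651464, plus strand: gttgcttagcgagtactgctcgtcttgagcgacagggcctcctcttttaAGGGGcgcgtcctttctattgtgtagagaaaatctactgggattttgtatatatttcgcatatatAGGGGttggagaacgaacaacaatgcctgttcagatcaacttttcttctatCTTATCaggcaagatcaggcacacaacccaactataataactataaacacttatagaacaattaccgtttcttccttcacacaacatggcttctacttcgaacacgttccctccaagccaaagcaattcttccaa

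GTAAACA was found in the windows of 5 of the 19 genes that fell, which are the 4 shown and FYV8, in 0 of the 7 that rose, and in 6.55% of 6001 promoters of the same length. GAANNTTC was found in 4 of 19 and 0 of 7, against 11.8% of all promoters. AGGGG was found in 3 of 19 and 2 of 7, against 21.6%. The other motifs were GATGAG in 4 of 19, 1 of 7 and 20.4%; CCAAT in 8 of 19, 1 of 7 and 43.3%; CACGTG in 2 of 19, 1 of 7 and 2.92%; ACGCGT in 1 of 19, 0 of 7 and 3.07%; and TCGTATA in 2 of 19, 0 of 7 and 4.15%. AAAATTTT was in 1 of 19, 0 of 7 and 9.03%, CGCGAAA in 0 of 19, 0 of 7 and 3.60%, TGACTC in 0 of 19, 1 of 7 and 7.98%, and GATAAG in 0 of 19, 1 of 7 and 14.7%. Both strands were searched. Matches to 2 motifs can share up to 4 bases, as GAANNTTC and CGCGAAA can. A match is a run of letters in the S. cerevisiae window only, since promoters of the other species were not used here.

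The remaining genes that fell belong to no single pathway. STI1, the cochaperone that links Hsp70 to Hsp90, had 223, 25.7, 69.8 and 261 CPM on day 2, against 317, 104, 347 and 895 CPM on day 1. The fall of 1.66 ± 0.32 (edgeR adjusted p = 0.0358) was at least 3-fold in every species but S. cerevisiae, whose change was -0.50. ZEO1, a plasma membrane protein of the cell integrity pathway, had 16.6, 23.6, 25.5 and 80.4 CPM on day 2, against 173, 65.2, 44.8 and 409 CPM on day 1. Its fall of 2.01 ± 0.37 (edgeR adjusted p = 0.0302) was largest in S. cerevisiae and least in S. mikatae.

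BFR1, an mRNA-binding protein of polyribosomes, had 142, 169, 134 and 155 CPM on day 2, against 670, 1163, 159 and 452 CPM on day 1. The day 2 levels were nearly equal in the 4 species, and S. mikatae moved by only -0.25 while the other changes lay between -2.78 and -1.55. MKS1, a negative regulator in the mitochondrial retrograde and nitrogen pathways, fell by 1.34 ± 0.28, FIR1, which acts in mRNA 3′ end processing, by 1.69 ± 0.36, FYV8, named for survival of K1 killer toxin, by 1.36 ± 0.28, and YPR148C by 1.79 ± 0.31. Their edgeR adjusted p-values were 0.0446 for the first 3 and 0.0270 for YPR148C, whose 4 day 2 libraries, at 9.04 to 24.0 CPM, lay below the 4 of day 1, at 32.2 to 98.99 CPM.

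Among the 7 genes that rose, VID24 and MDH2 belong to gluconeogenesis and its breakdown. VID24, the subunit that directs the GID ubiquitin ligase to fructose-1,6-bisphosphatase when glucose returns, had 429, 146, 618 and 410 CPM on day 2, against 127, 110, 90.8 and 77.8 CPM on day 1. All 4 day 2 libraries lay above all 4 of day 1, but the change was 2.76 in S. mikatae and 0.41 in S. paradoxus. The rise was 1.85 ± 0.36 on the log2 scale, 3.61-fold, with an edgeR adjusted p of 0.0358. MDH2, the cytosolic malate dehydrogenase of gluconeogenesis and a substrate of the same ligase, had 283, 213, 755 and 73.9 CPM on day 2, against 79.3, 118, 191 and 38.05 CPM on day 1. It rose by 1.41 ± 0.29, 2.66-fold (edgeR adjusted p = 0.0446), and every species was higher on day 2.

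The 16 tested genes of gluconeogenesis and its breakdown had medians of 1.00, 0.27, 1.57 and -0.07, so S. mikatae and S. cerevisiae stood highest and S. bayanus was at the level of all genes. Of the 16, 9 had an unadjusted p under 0.05 on the higher side, where all genes gave 9.35%, and 0 on the lower side. ACS1, acetyl-CoA synthetase, was at 1.23 (adjusted p = 0.109), with 3.11 in S. mikatae and 0.24 in S. cerevisiae. Members named after their values were seen were ICL1, isocitrate lyase of the glyoxylate cycle, which was at 0.90, -0.69, 4.74 and 0.29, and JEN1, the lactate permease, at 2.63, -0.12, 2.50 and 0.48. UBC8, the ubiquitin-conjugating enzyme of this pathway, was at -0.71 (adjusted p = 0.250).

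Genes of the reserve carbohydrates trehalose and glycogen had medians above that of all genes in all 4 species, without a call. Of 13 tested, 6 had an unadjusted p under 0.05 on the higher side and 0 on the lower side, 4 were higher in all 4 species, and the medians were 0.86, 0.43, 0.35 and 0.32. GSY1, a glycogen synthase, was at 1.01 (adjusted p = 0.0576) with 1.06, 0.95, 0.82 and 1.20 in the 4 species. GDB1, the glycogen debranching enzyme, was at 1.04 (adjusted p = 0.0624), and TPS2, trehalose-6-phosphate phosphatase, at 0.97 (adjusted p = 0.0835). GLC3 and GPH1, the branching enzyme and glycogen phosphorylase, named after their values were seen, split by species: GLC3 was at 2.78, 0.65, 2.98 and -0.74, and GPH1 at 2.60, -0.06, 2.83 and 0.32.

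The other risen genes act in lipids, mitochondria and cell separation. NCP1, the reductase that supplies electrons to the cytochrome P450 steps of ergosterol synthesis, had 1468, 1114, 1058 and 354 CPM on day 2, against 415, 356, 458 and 130 CPM on day 1. The change was between 1.21 and 1.82 in every species and the rise was 1.53 ± 0.26, 2.89-fold (edgeR adjusted p = 0.0270). Of 20 tested ergosterol genes, 7 were higher in all 4 species and 0 lower in all 4, where 525 and 410 of all 3262 genes were. An unadjusted p under 0.05 was found for 4 on the higher side and 0 on the lower side. The medians were 0.14, 0.07, 0.07 and 0.63, against 0.03, 0.12, 0.01 and 0.03 over all tested genes. ERG25, a methyl sterol oxidase, was at 0.72 (adjusted p = 0.144). PLN1, the perilipin of lipid droplets, rose by 1.24 ± 0.27 (adjusted p = 0.0446), with 0.80 to 1.52 in the species.

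SDS24, which acts in cell separation after budding, had 735, 390, 913 and 179 CPM on day 2, against 200, 97.3, 301 and 88.5 CPM on day 1. Every species was at least 2-fold higher, and the rise was 1.63 ± 0.27, 3.09-fold (edgeR adjusted p = 0.0270). IMG1, a protein of the large mitochondrial ribosomal subunit, had 50.2, 15.4, 84.4 and 63.3 CPM on day 2, against 13.1, 3.38 (10 reads), 19.3 and 37.0 CPM on day 1, and rose by 1.72 ± 0.34 (adjusted p = 0.0375). It stood apart in its list: the 59 tested mitochondrial ribosomal proteins had medians of 0.33, 0.29, 0.02 and -0.02, and 16 were higher and 5 lower in all 4 species. YBR238C, a mitochondrial membrane protein with the paralog RMD9, rose by 1.74 ± 0.33 (adjusted p = 0.0307), with 0.56 in S. paradoxus and 1.80 to 2.49 in the other species.

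Of 64 gene lists, 9 had a median below that of all genes in every species, 4 above it in every species, and 51 were on different sides. How many lists would lie on 1 side in every species by chance was not tested. The same 9 and 4 lists held under each of 5 other settings of normalization, depth, length and reads counted, as did 47 of the 51. Besides chromatin remodelling, septins and polarity, G2/M and microtubules, the lower lists were DNA repair and replication origin factors (median of the mean changes -0.39, 38 genes), Mediator (-0.28, 17 genes), mRNA 3′ processing and export (-0.21, 26 genes), histone modifying complexes (-0.19, 34 genes) and vacuolar protein sorting (-0.17, 32 genes). In the DNA repair list 15 of 38 genes had an unadjusted p under 0.05 on the lower side and 0 on the higher side, led by RAD55, a recombination mediator, at -1.48 (adjusted p = 0.0624). The higher lists were trehalose and glycogen, sphingolipid synthesis (0.43, 15 genes), mitochondrial protein import (0.41, 22 genes) and the TCA cycle (0.23, 20 genes). Some of these lists had few genes with an unadjusted p under 0.05, where all genes gave 11.3% lower and 9.35% higher. Lower and higher, there were 4 and 1 in vacuolar protein sorting and 4 and 1 in mRNA 3′ processing and export. Mediator had 3 and 2, and the TCA cycle 2 and 2. LCB1, a subunit of serine palmitoyltransferase at the start of sphingolipid synthesis, was at 1.04 (adjusted p = 0.0689), PHB1, a prohibitin, at 0.82 (adjusted p = 0.0952), and PKP1, a kinase of pyruvate dehydrogenase, at 1.22 (adjusted p = 0.0581).

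**Figure D3:**
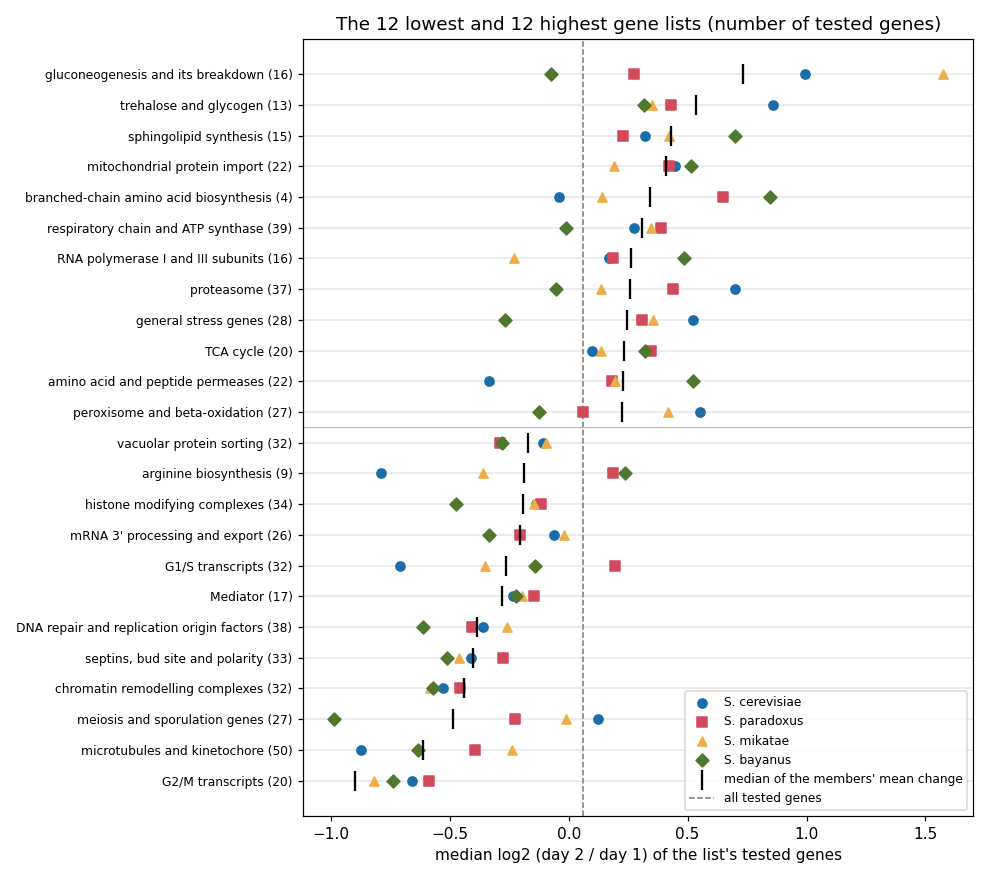
Median log2 change of the 12 lowest and 12 highest gene lists, 1 row per list with its number of tested genes and 1 point per species. G2/M transcripts lie at -0.59 to -0.82 in every species, chromatin remodelling complexes at -0.46 to -0.58, and trehalose and glycogen at 0.32 to 0.86, while gluconeogenesis runs from -0.07 in S. bayanus to 1.57 in S. mikatae.

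Length moved with the day change in 3 of the 4 species. Genes that fell had a median coding length of 1956 bases, those that rose 1134, and all tested genes 1185. In 5 bins of genes by length, from short to long, the median change was 0.14, 0.08, 0.02, 0.08 and -0.04, and the last bin held 9 of the 19 genes that fell and 2 of the 7 that rose. By species, the median of the first bin was 0.17, 0.26, -0.03 and 0.13 and that of the last -0.15, -0.05, 0.07 and -0.12, so S. mikatae went the other way. With a trend on length removed from each library 39 genes were called, 24 of the 26 among them. With the deeper library of each species thinned to the depth of the shallower one 17 were called, 16 of them shared with the 26.

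The species differed in which lists lay above or below the median of all genes, as the 51 lists on different sides show. Across the 3262 genes the changes of S. paradoxus and S. bayanus were most alike (Pearson r = 0.486, Spearman rho = 0.453), followed by S. cerevisiae and S. mikatae (r = 0.396, rho = 0.387) and S. cerevisiae and S. paradoxus (r = 0.367, rho = 0.338). S. paradoxus and S. mikatae (r = 0.202, rho = 0.202), S. cerevisiae and S. bayanus (r = 0.175, rho = 0.159) and S. mikatae and S. bayanus (r = 0.170, rho = 0.165) were less alike. In all 6 pairs the correlation was positive, and 54.6 to 67.4% of genes had the same direction. These values are across genes, which are not independent replicates, and the points share a deeper library on day 2 in every species. With the deeper library of each species thinned to the depth of the other, r ran from 0.17 for S. mikatae and S. bayanus to 0.476 for S. paradoxus and S. bayanus. The cause of the likeness was not tested.

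Lists of sulfur, purine and some amino acid pathways and of ribosomal proteins split between the species, below the median of all genes in S. cerevisiae and S. mikatae and above it in S. paradoxus and S. bayanus, under TMM and each of the 2 other scalings. Sulfur and methionine metabolism (13 genes) had medians of -1.09, 0.56, -0.10 and 0.20. Purine synthesis (9 genes) had -1.02, 0.41, -0.32 and 0.75. Serine, glycine and threonine synthesis (13 genes) had -0.78, 0.64, -0.04 and 0.73, and arginine (9 genes), histidine (6 genes) and lysine synthesis (6 genes) lay on the same sides, at -0.79, -0.78 and -0.68 for S. cerevisiae and 0.18, 0.33 and 0.52 for S. paradoxus. The 15 tested cytosolic ribosomal proteins, most of whose family has copies that the limit on unique reads left out, had -0.74, 0.44, -0.26 and 0.43. The split was not particular to these functions. Protein glycosylation and GPI anchors (45 genes) lay on the same sides, with -0.28, 0.31, -0.31 and 0.64. So did glycolysis and fermentation (12 genes), the pentose phosphate pathway (7 genes) and cell wall proteins and enzymes (27 genes). The 2 other amino acid lists broke this split: aromatic synthesis (10 genes) was above the median of all genes in S. cerevisiae, with 0.10, 0.28, -0.14 and 0.34, and branched-chain synthesis (4 genes) above it in S. mikatae, with -0.04, 0.65, 0.14 and 0.85. For the change in S. cerevisiae minus the other species, 6 of the 13 sulfur genes had an unadjusted p under 0.05 on the lower side and 0 on the higher side, against 137 and 104 of all 3262 genes.

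Other lists differed between the species in other ways, some of them apart in 1 species. The 22 tested genes under nitrogen catabolite repression had a median of -0.96 in S. cerevisiae and of 0.26 to 0.58 in the other species, and 7 of them had an unadjusted p under 0.05 for a lower change in S. cerevisiae than in the others and 2 for a higher one, against 137 and 104 of all 3262 genes. Of 71 ribosome biogenesis genes the median was lowest in S. paradoxus and highest in S. mikatae, with -0.01, -0.70, 0.53 and -0.07. Fatty acid and phospholipid synthesis (25 genes) had 0.92 in S. bayanus against -0.09, 0.10 and -0.27 in the others. In S. bayanus the 27 tested meiosis and sporulation genes had a median of -0.99 and the 15 haploid-specific genes of -0.87, against -0.23 to 0.12 and 0.11 to 0.26 in the other species; most of the meiotic genes had few reads. The proteasome (37 genes) was at 0.70, 0.44, 0.13 and -0.05. Differences between species were tested for single genes only, not for lists.

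**Figure D4:**
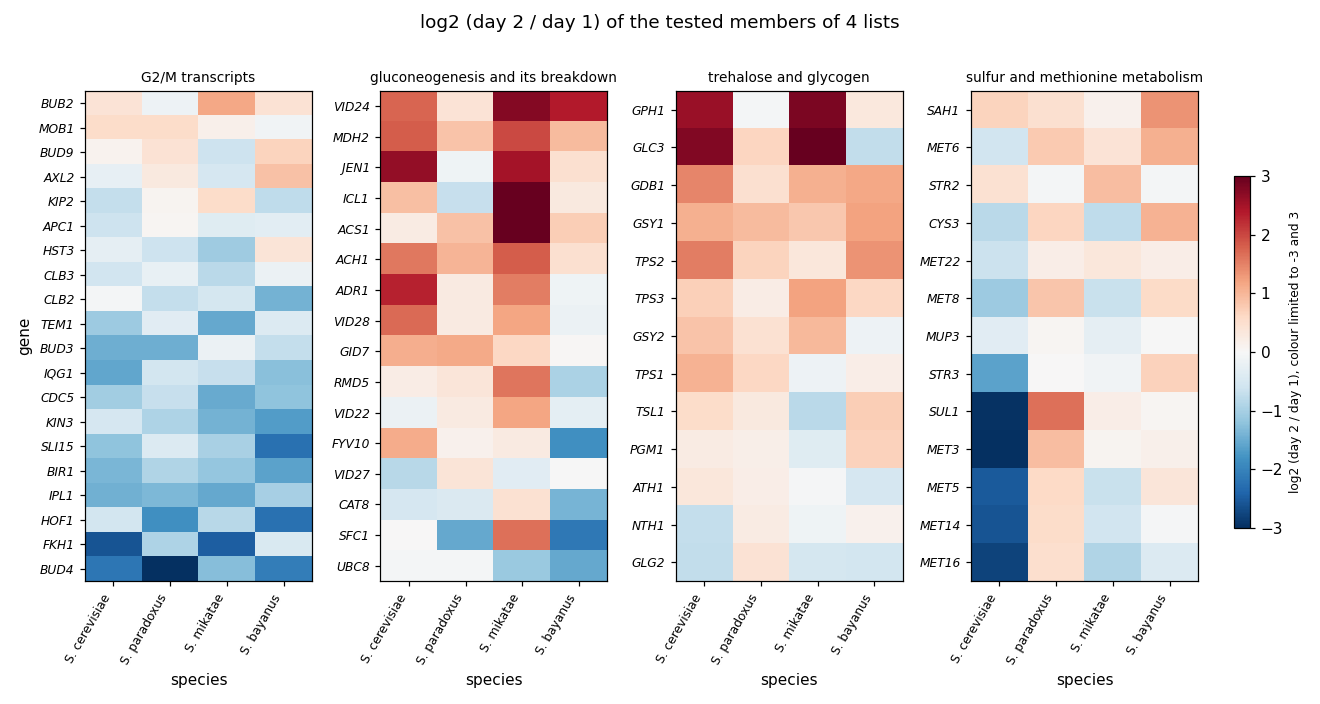
Log2 of day 2 over day 1 of each tested member of 4 lists, 1 row per gene and 1 column per species, with red for higher and blue for lower on day 2 and colour limited to -3 and 3. G2/M transcripts are mostly blue in all 4 columns, trehalose and glycogen mostly red, gluconeogenesis red mainly in S. cerevisiae and S. mikatae, and sulfur and methionine metabolism blue mainly in S. cerevisiae.

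A change in 1 species was tested as that species' day change minus the mean change of the other 3, which share their libraries between these 4 tests and leave 2 residual degrees of freedom. In S. cerevisiae 2 genes had an adjusted p under 0.05, both lower (0.0613% of tested genes), 0 were higher, and 241 had an unadjusted p under 0.05; DESeq2 called 27. In S. paradoxus edgeR called 0 genes, 46 had an unadjusted p under 0.05 and DESeq2 called 0. In S. mikatae edgeR called 0, with 175 and 11 by the same counts, and in S. bayanus 0, with 212 and 0. Counts of genes at least 4-fold changed in 1 species and under 1.5-fold in each other species were 10, 2, 13 and 6, 0.307%, 0.0613%, 0.399% and 0.184% of the tested genes.

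In S. cerevisiae MET3, the ATP sulfurylase that activates sulfate, had 118 CPM on day 2 and 1237 CPM on day 1, 10.4-fold lower. In the other species it had 881, 655 and 690 CPM on day 2, against 460, 622 and 617 CPM on day 1. The S. cerevisiae change minus the others was -3.77 ± 0.66 (SE, edgeR adjusted p = 0.0408). Further genes of sulfate uptake and reduction were low in the same library, named after their values were seen: the sulfate permease SUL1 was at -2.95 in S. cerevisiae (adjusted p of the difference 0.0721), MET16 at -2.78 (0.176), MET14 at -2.60 (0.176) and MET5 at -2.53 (0.195).

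MNN4, a regulator of mannosylphosphate transfer in the cell wall, had 16.6 CPM on day 2 and 303 CPM on day 1 in S. cerevisiae, 17.7-fold lower. In the other species it had 509, 288 and 317 CPM on day 2, against 704, 567 and 313 CPM on day 1, so S. mikatae also moved downward, by -0.98. The difference was -3.71 ± 0.67 (edgeR adjusted p = 0.0408). The calls of MET3 and MNN4 were lost under other normalizations, with 0 genes called on size factors or library totals, and without the day 1 library of S. mikatae 118 genes were called.

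Genes of the size rule that missed the test in S. cerevisiae were CTP1, the mitochondrial citrate carrier, at -3.12, VHT1, the biotin transporter, at -2.85, and ARG56, which catalyses consecutive steps of arginine synthesis, at -2.62 (adjusted p of the difference 0.0721, 0.168 and 0.176). TPO4, a polyamine exporter, was higher, at 8120 CPM on day 2 and 1880 CPM on day 1 (2.11, adjusted p = 0.214). In S. paradoxus the pair were KRR1, needed for the small ribosomal subunit, at 19.0 CPM on day 2 and 132 CPM on day 1, and BRE5, a cofactor of the Ubp3 deubiquitinase, at 32.0 CPM on day 2 and 186 CPM on day 1, both lower with an adjusted p of 1.

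In S. mikatae the largest change by this rule was that of CRC1. This gene, which encodes the mitochondrial carnitine carrier that brings acetyl groups in from the peroxisome, had 245 CPM from 1142 reads on day 2, against 8.503 CPM from 37 reads on day 1, 27.2-fold higher. The other species had 3.86, 7.32 and 132 CPM on day 2, against 3.94, 9.79 and 119 CPM on day 1, so they stayed within 1.5-fold at levels far apart. The difference was 4.92 ± 0.65 (edgeR adjusted p = 0.0602) and missed the threshold. CIT2, the peroxisomal citrate synthase of the glyoxylate cycle and a target of the retrograde pathway, had 10467 CPM on day 2 and 1100 CPM on day 1 (3.25, adjusted p = 0.759), and NDE2, an external NADH dehydrogenase of mitochondria, 504 CPM on day 2 and 83.9 CPM on day 1 (2.58, adjusted p = 0.759). DFR1, dihydrofolate reductase, was 5.11-fold lower in this species, MUS81, a DNA repair endonuclease, 4.06-fold lower, and PPA2, the mitochondrial pyrophosphatase, 4.01-fold lower. HSP12, a small stress protein of membranes that is outside this rule and is named after its values were seen, had 70.4 CPM on day 2 in S. mikatae, against 1.15 CPM on day 1, a change of 5.40 beside 0.72, -0.19 and 1.00 in the other species (adjusted p of the difference 0.110). Its day 1 level rested on few reads, since in that library 20 reads of CIK1 made 4.60 CPM.

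In S. bayanus AGP3, an amino acid permease, had 131 CPM on day 2 and 25.2 CPM on day 1, ACA1, a transcription factor of carbon source use, 120 CPM on day 2 and 24.9 CPM on day 1, and FMP23, a mitochondrial protein of unknown role, 12.5 CPM on day 2 and 69.9 CPM on day 1. The differences from the other species were 2.43 ± 0.64, 2.44 ± 0.66 and -2.47 ± 0.84, with edgeR adjusted p-values of 0.450, 0.450 and 0.541. The size rule that picked the genes of these 4 species used the same contrast as the difference test, so the sizes are a description.

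**Figure D5:**
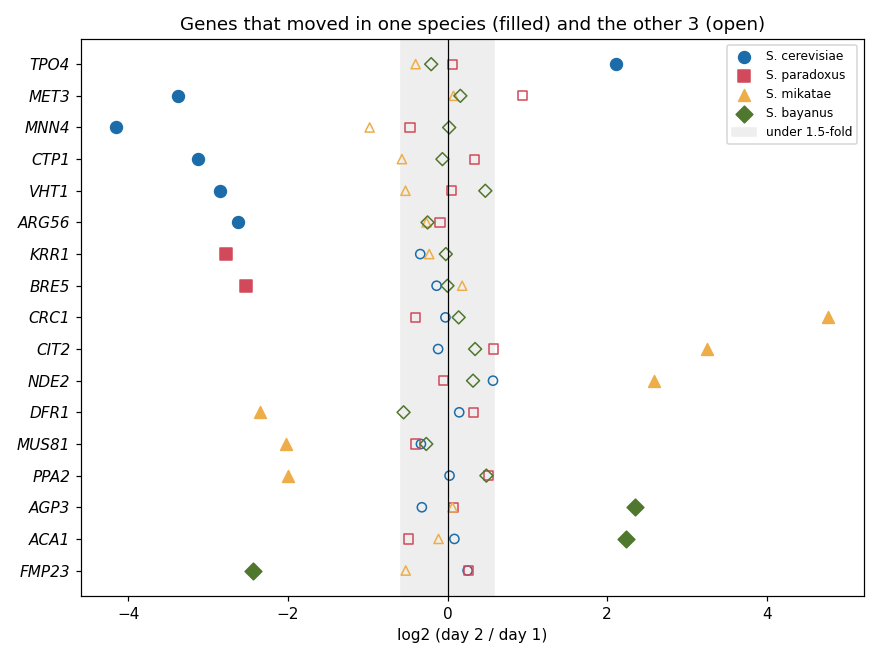
Log2 of day 2 over day 1 for the genes that moved at least 4-fold in 1 species, with that species filled and the other 3 open, and a grey band for changes under 1.5-fold. Filled points run from -4.15 for MNN4 in S. cerevisiae to 4.77 for CRC1 in S. mikatae, and the open points lie in the band except those of MET3 in S. paradoxus and MNN4 in S. mikatae.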

How the data were processed

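RNA was sequenced from 2 cultures of each of 4 yeast species, 1 per species and day. Read counts per gene were deposited by the authors: per the methods, reads were placed on each species' own genome by MOSAIK and counted per gene without normalization, as all aligned and as uniquely aligned reads. For S. cerevisiae the submitters' notes give the build sacCer2. Unique counts were used here. Names were matched by locus to RefSeq R64 for 3278 of the 3339 genes, and promoters come from R64. Columns of other series numbered 0.

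Counts were tested with edgeR 4.0.16 (R 4.3.3, TMM, quasi-likelihood, prior count 2 for log2 changes, terms for species and day, 3 residual degrees of freedom) on genes that reached 10 counts in 2 or more libraries, and adjusted by Benjamini-Hochberg at 0.05. The change in 1 species against the other 3 was tested by a term for day within that species, with 2 residual degrees of freedom. Changes of single species are differences of log2 CPM. DESeq2 1.42.0, other scalings, filters and gene sets, thinning, a length trend, no species term and leaving out each library were alternatives. On simulated data the day test called 34% of genes changed 2-fold and 96% of genes changed 4-fold.

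Named were all called genes, up to 3 members per list with the largest mean change among those moved one way in all 4 species, and for each species up to 3 genes a direction at least 4-fold changed there, under 1.5-fold in each other species and with 50 reads on average. Other names are said to be chosen after their values were seen. The members and the 64 lists were chosen with earlier results of these data known. Cultures of a species differed by at least day and isolate. The p-values set the day change against its spread between species, which edgeR draws toward a value shared across genes. RSC2, with changes of -1.46 to -1.10, thus had an SE of 0.27, and BFR1, with -2.78 to -0.25, one of 0.37. Sums of counts differ by library, and scarce genes have wider counting error.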

Additional observations from a re-analysis of the deposited data

Results flagged for a closer look

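In 3 of the 26 called genes 1 species lay apart from the other 3 by Dixon's criterion for 4 values, which flags about 1 in 20 groups by chance. IMG1 had a change of 0.77 in S. bayanus, beside 1.89 to 2.10 in the other species. BUB1 had -0.64 in S. bayanus, beside -2.31 to -2.12, and LEO1 had -1.01 in S. cerevisiae, beside -1.95 to -1.81. A difference between species was tested for MET3 and MNN4 in S. cerevisiae, whose day changes minus those of the other 3 species were -3.77 and -3.71, each with an edgeR adjusted p of 0.0408.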

How the results depend on the processing

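The day test pairs the libraries by species. No paired analysis was possible by replicate number because that number is itself the comparison. The count of 26 called between the days was 27 on size factors and 26 on all aligned reads. It was 54 on library totals, 65 with no filter on low counts, 66 with at least 10 counts in every library, 263 with DESeq2, 17 with thinned libraries, 39 with the length trend removed, 10 with coding lengths within 90 to 110%, 7 with a unique share of at least 99%, and 0 with edgeR and no species term, where 129 had an unadjusted p under 0.05. Leaving out 1 library gave 2 to 48. For S. cerevisiae minus the others, the count of 2 was 0 on size factors, on library totals, with 10 counts in every library and with the length trend removed, 4 with no filter, 27 with DESeq2 and 0 to 118 without 1 library, the highest without replicate 1 of S. mikatae. The counts of 0 became, for S. mikatae, 2 on library totals, 1 with no filter, with thinned libraries or with the length trend removed, 11 with DESeq2 and 0 to 69 without 1 library, 0 to 1 without 1 library for S. paradoxus, and 0 to 6 for S. bayanus. The cause of these shifts was not tested, except that fewer genes were tested under the stricter gene sets and filters. No called gene changed direction in an alternative that tested it, which their shared direction in all 4 species made likely beforehand. Of 320 list medians 11 moved by more than the spread between species, and some medians near 0 turned in sign, as that of all genes did on library totals (-0.08). Read against the median of all genes, 47 of the 51 lists on different sides stayed so under each setting.

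The limits are 1 culture per species and day, 3 residual degrees of freedom for the day test and 2 for the difference tests. In simulated data the difference test called 0% to 19% of genes changed 4-fold in 1 species, so a missing call there does not show that species moved alike. LEO1, CIK1, MCD1 in S. cerevisiae, IMG1 in S. paradoxus, HSP12 on day 1 in S. mikatae and the meiotic genes rested on few reads. Differences in genes of that depth were not detectable unless large.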

Other observations

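The general stress genes and the genes of the respiratory chain and ATP synthase had their lowest medians in S. bayanus. They were not alone in this. Peroxisome and beta-oxidation (27 genes), mitochondrial gene expression (20 genes) and autophagy (20 genes) were also lowest there, at -0.13, -0.11 and -0.55. So were trehalose and glycogen, gluconeogenesis, mitochondrial ribosomal proteins and the proteasome. Other lists differed: heat shock proteins and chaperones (32 genes) were lowest in S. mikatae, at -0.28, as was mitochondrial protein import (22 genes), at 0.19. The TCA cycle (20 genes) was lowest in S. cerevisiae, at 0.10. The 28 tested general stress genes had medians of 0.52, 0.31, 0.35 and -0.27, with the species ordered as in the report, and 8 of them had an unadjusted p under 0.05 for a lower change in S. bayanus than in the other species, against 117 of all 3262 genes. HSP26, a small heat shock protein named after its values were seen, had 15.9, 70.2, 55.6 and 173 CPM on day 2, against 67.0, 43.2, 84.6 and 1507 CPM on day 1, and its mean change was -1.29 ± 0.50 (edgeR adjusted p = 0.156). The 39 tested genes of the respiratory chain and ATP synthase had medians of 0.27, 0.39, 0.34 and -0.01, of which the last was 0.03 on size factors.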
